A study of Mus musculus with 4 samples.

Results

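Endothelial cells, which line the blood vessels of the pituitary gland, were taken from a single-cell RNA-seq matrix of the whole mouse pituitary by the genes they transcribe. A barcode was counted as endothelial if it had 500 or more UMIs (unique molecular identifiers, each standing for 1 captured RNA molecule), no more than 25% of them from mitochondrial genes, at least 1 UMI of 3 or more of Pecam1, Plvap, Cdh5, Kdr, Flt1, Emcn and Esam, no more than 1 detected gene of the stem cell markers Sox2, Sox9, Aldh1a2, Cyp2f2 and Mia, no more than 1 of the mural markers Pdgfrb, Rgs5, Cspg4, Abcc9, Kcnj8 and Higd1b, and under 25% of its UMIs from Gh, the growth hormone gene. Of 40406 barcodes, 40044 passed the UMI and mitochondrial limits, and 880 of these, or 2.20% (exact Clopper-Pearson 95% interval 2.06 to 2.35%), were endothelial cells by this rule. The series holds 4 libraries of male mice, which were 4 weeks old when the diets began and ate them for 12 weeks. Of the libraries, 2 had received the HFD, a high-fat diet, and 2 the ND, the normal diet. Each library pooled 3 pituitaries. No genotype or strain difference between the groups is given. For every library the labels also name the cell line Lbt2 and the cell type gonadotroph, while the tissue and the protocol describe whole pituitaries, dissociated with enzymes at 37 ℃ for 1 h.

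The barcodes carry the suffixes 1 to 4, called sets 1 to 4 here, and no label ties a set to a library, so the matrix was treated as 1 pooled sample. Values are given for each set, and no diet was compared with the other. The members were chosen by the detected UMIs of the marker genes of the rule in the same cells, so all differences from other barcodes are descriptions with no test. Sets 1 to 4 held 169, 234, 278 and 199 endothelial cells, which were 1.67, 2.36, 2.75 and 2.01% of the kept barcodes of each set. Over the series, 155 barcode sequences occurred in 2 or more sets, the sequences of 10 endothelial cells among them, and 1 sequence was shared between endothelial cells of different sets. The endothelial cells had a median of 3024 UMIs and 1619 detected genes, against a median of 7611 UMIs in all kept barcodes, and a median of 3.02% of their UMIs came from the hormone genes Gh, Prl, Pomc, Cga, Lhb, Fshb and Tshb.

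The anterior pituitary is supplied through a portal system of wide, fenestrated capillaries, whose endothelial cells are pierced by pores closed by a diaphragm, so that hypothalamic releasing factors can leave the blood and pituitary hormones can enter it. Plvap is the protein that builds these diaphragms. Vascular endothelial growth factor (VEGF), read by the receptors Kdr (VEGFR2), Flt1 (VEGFR1) and Flt4 (VEGFR3), is known to keep such capillaries fenestrated, and the angiopoietin receptor Tek (Tie2) with its partner Tie1 steadies vessels. Transcription factors of the ETS family, such as Erg, and of the SOXF group, Sox7, Sox17 and Sox18, hold endothelial identity.

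Marker genes are compared here by the sequence before their start. The 250 bases before the start of 4 of them, from RefSeq (GRCm38.p6), are shown, on the gene's strand, with matches of the ETS-type core AGGAAG on either strand in capitals (on the opposite strand it reads CTTCCT). Flt1 lies on the minus strand at chr5:147726012-147726261, Emcn on the plus strand at chr3:137340828-137341077, Egfl7 (the first of its listed starts) on the plus strand at chr2:26580833-26581082 and Kdr on the minus strand at chr5:75978456-75978705. Plvap, Cdh5, Pecam1 and Esam had no entry in the table used here.
Flt1: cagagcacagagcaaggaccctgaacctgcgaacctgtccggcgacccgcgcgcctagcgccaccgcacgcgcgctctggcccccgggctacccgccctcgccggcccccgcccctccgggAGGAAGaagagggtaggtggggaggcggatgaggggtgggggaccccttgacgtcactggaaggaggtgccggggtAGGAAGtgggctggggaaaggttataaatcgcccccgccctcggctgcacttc
Emcn: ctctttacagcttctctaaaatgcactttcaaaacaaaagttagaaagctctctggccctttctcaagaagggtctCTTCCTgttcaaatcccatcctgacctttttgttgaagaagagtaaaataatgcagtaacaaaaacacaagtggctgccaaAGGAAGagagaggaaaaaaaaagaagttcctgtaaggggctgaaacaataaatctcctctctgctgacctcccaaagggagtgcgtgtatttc
Egfl7: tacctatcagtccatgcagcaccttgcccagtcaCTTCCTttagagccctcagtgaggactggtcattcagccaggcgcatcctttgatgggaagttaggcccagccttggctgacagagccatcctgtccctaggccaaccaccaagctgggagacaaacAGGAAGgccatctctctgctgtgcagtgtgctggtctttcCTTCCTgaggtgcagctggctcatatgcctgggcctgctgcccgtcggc
Kdr: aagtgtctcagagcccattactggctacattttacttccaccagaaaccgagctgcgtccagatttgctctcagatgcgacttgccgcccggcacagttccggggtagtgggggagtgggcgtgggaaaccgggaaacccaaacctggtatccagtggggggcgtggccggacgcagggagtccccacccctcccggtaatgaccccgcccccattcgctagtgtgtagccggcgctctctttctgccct
Flt1 held 2 matches, Emcn 2 and Egfl7 3, and the windows of Kdr and of Igfbp3 held 0. The core occurred in 29.2% of the first listed windows of all 27025 genes with an entry and in 28.0% of those of the 12661 tested genes with an entry. Of the genes that were higher in endothelial cells than in each of 5 other classes of cell, 167 had an entry, and 39.5% of their windows held it. AACAAT, a core bound by SOX factors, occurred in 5.29% of the windows of the tested genes and in 4.19% of those of the 167 genes. The counts describe letters in a window and mark no bound site.

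Levels are given as CPM, here UMIs per 1000000 UMIs outside the 7 hormone genes, summed over all barcodes of a group. A gene was called higher in endothelial cells where its level was 2-fold or more over that of the other kept barcodes in each of the 4 sets with 20 or more UMIs in endothelial cells, and lower where it was 0.5 or less in each set. Of 19464 genes with 100 or more UMIs, 1222 (6.28%) were called higher and 641 (3.29%) lower, and the median ratio over all tested genes was 0.801. With the hormone genes kept in the library size the median ratio was 1.04, a shift of 0.37 on the log2 scale, and 1567 genes were called higher and 208 lower. Only 256 genes (1.32%) were 2-fold or more higher in each set than in each of 5 classes set apart by their own markers, the 1980 stem or folliculostellate barcodes, 332 fibroblast, 1880 macrophage, 425 T or NK cell and 18338 hormone cell barcodes. Nothing is read from these shares, because the rule used the same contrast. The other kept barcodes include 723 that met the marker criterion and were excluded for other reasons, so their levels of endothelial genes are not those of cells without endothelial RNA.

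The defining markers were present throughout. Plvap had 2218, 2587, 2356 and 2388 CPM in sets 1 to 4, 2394 (95% interval 2347 to 2442) over all members, against 51.1 in the other barcodes. All 4 sets lay within a narrow range and far above the others. Plvap had a UMI in 97.6% of the 880 endothelial cells (median 3024 UMIs) and in 0 of 425 T or NK cell barcodes (median 2228 UMIs), which allows a share of up to 0.706% at the floor of 3 counts. The T or NK cell class was limited to at most 1 of the rule markers, so its low share was set in part in advance. Kdr stood at 1255, 1251, 1385 and 1343, with 31.3 in the others, and Flt1 at 833, 758, 768 and 787, with 15.2 in the others. Emcn, the sialomucin endomucin of capillaries and veins, stood at 1022, 1051, 1122 and 868, and Cdh5, the endothelial cadherin, at 619, 454, 596 and 524. The levels of these rule genes are what chose the cells. Poisson and binomial intervals here cover counting error only.

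**Figure D1:**
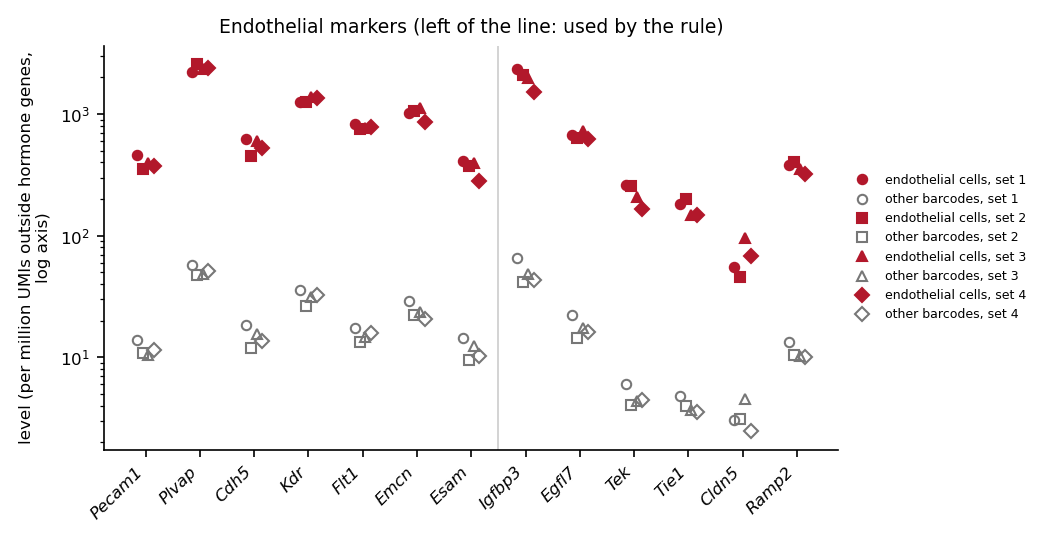
Level of 13 endothelial markers in each of the 4 barcode sets on a log axis, in CPM, UMIs per 1000000 outside the hormone genes, with filled symbols for the 880 endothelial cells and open symbols for all other kept barcodes. In each set every marker was higher in endothelial cells, as for Plvap, from 2218 to 2587 against 51.1 over all other barcodes.

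Barcodes close to the limits of the rule differed in depth. Of the kept barcodes that met the other criteria, 112 had 2 markers and stayed outside, with a median of 5881 UMIs, and 55 had 3 and came in, with a median of 1317 UMIs. All 7 markers were detected in 374 members. Near the limit on growth hormone, 16 members had 20 to 25% of their UMIs from Gh and 20 barcodes with 25 to 30% were left out. Of 1603 barcodes with 3 or more endothelial markers, the stem cell limit removed 335, the mural limit 421 and the growth hormone limit 105, with overlaps, and the 723 removed barcodes had a median of 11431 UMIs. Of 175 kept barcodes with 3 or more mural markers, 160 also had 3 or more endothelial markers, so pericytes and smooth muscle cells could not be set apart as a class of their own.

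Members differed in how much RNA they carried of genes known from other cells, and this touches each result that follows. Leiden clustering of the 880 cells gave 8 clusters, and in 4 of them genes of another cell type led. Cluster 3 (64 cells) carried 6 of 7 fibroblast markers at 2-fold or more over the other members, and its leading genes were Islr, Angptl4 and Col3a1. It also carried 5 of 12 mural markers, Pdgfrb, Tagln, Notch3, Ndufa4l2 and Vtn. Cluster 4 (57 cells) carried 10 of 10 macrophage markers, with the lymphocyte genes Gzma and Ccl5. Cluster 5 (144 cells, median 11108 UMIs) was led by endocrine genes such as Neurod4, and cluster 6 (22 cells) by the gonadotroph genes Tgfbr3l and Gnrhr, the receptor for gonadotrophin-releasing hormone. These 4 clusters held 287 cells, 62.8% of all UMIs of the members and 133 of the 137 cells called doublets (46.3% of the 287). Doublet calls made up 7.81% of cluster 3, 38.6% of cluster 4, 66.7% of cluster 5 and 45.5% of cluster 6, beside 8.20% of all kept barcodes. The source of the RNA of fibroblast and mural genes in cluster 3 was not tested. The other 593 cells, in clusters 0, 1, 2 and 7, are called core cells here, and no vessel type was used to choose them. They held 37.2% of the UMIs, and had a median of 2359 UMIs and 0.675% doublet calls. Sets 1 to 4 gave 111, 159, 196 and 127 of them.

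Among the core cells 1292 genes (6.64%) were called higher than in the other barcodes and 2163 (11.1%) lower, with a median ratio of 0.615. In both the members and the core, 1048 genes were called higher and 451 lower. The rule genes were higher in the core than in all members, Plvap at 4113 against 2394 and Kdr at 2187 against 1315. The clusters were made from these genes, so this is a description. Core counts are given beside those of most lists. List counts below stand beside 6.28% of all tested genes called higher and 3.29% lower in all members. For the core these shares are 6.64% and 11.1%.

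Genes of fenestrated capillaries were higher almost throughout their list. Rule genes are left out of this and all further list counts, and 10 of 11 tested genes were called higher and 0 lower, and their median ratio was 20.2, against 0.801 over all tested genes. The list still holds Igfbp3 and Egfl7, also markers of these cells, and was chosen with earlier results of these data known. Its counts are descriptions. Igfbp3, a carrier of insulin-like growth factors, had 2362, 2080.2, 1980.2 and 1506 CPM in sets 1 to 4 against 49.6 in the others. Set 4 was the lowest, and every set was above the others by 34.8 to 49.5-fold. Egfl7, a secreted factor of endothelial cells, stood at 669, 639, 731 and 618 against 17.4. Exoc3l2, which has a part in the transport of VEGFR2 to the membrane, stood at 260.3, 268, 241 and 249.7 against 5.85, and Plpp1, a lipid phosphatase, at 772, 879, 724 and 763 against 27.2. Plpp3 was called higher against all other barcodes (862 against 144), but fibroblast barcodes had 2336. In all members Esm1 (endocan), a gene induced by VEGF, was the exception. It was at 38.6, 28.1, 16.1 and 53.2 against 16.5 over the others, with set 3 the lowest. In the core 11 of 11 genes were called higher, Esm1 among them.

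Genes with the largest lowest-set ratio included further endothelial surface proteins and enzymes. Tbxa2r, the thromboxane receptor, was 44.8-fold over the others (120.3 against 2.68). Clec14a, a C-type lectin of endothelial cells, was 47.4-fold over, Ly6c1 43.3-fold, Adgrl4 46.9-fold and Adgrf5 42.7-fold. Cyp26b1, which degrades retinoic acid, had 519, 371, 496 and 387 in the sets against 9.71. In the next highest of the 5 classes, the macrophages, Cyp26b1 was at 1.88. Btnl9, a butyrophilin-like protein, was at 52.7 and in hormone cells at 0.0178. Nr5a2, a nuclear receptor, was at 68.1, with 0.126 in macrophages, the class nearest to it.

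VEGF receptors were high and VEGF itself was not set apart. Beside Kdr and Flt1, 4 of 14 tested genes of the VEGF list were called higher and 0 lower (7 higher and 1 lower in the core), with a median ratio of 1.86. Flt4 had 128, 159, 143 and 143 in sets 1 to 4 against 3.96 in the others, and was 2-fold or more over each of the 5 classes. Aplnr, the apelin receptor, had 89.2, 115, 142 and 96.2 against 3.66. The co-receptor Nrp1 had 491 against 32.0, but fibroblasts reached 379, and Nrp2 had 356 against 29.9. The ligand Vegfa stood at 54.2, 34.9, 55.5 and 49.1 against 22.5, without 2-fold in each set, and was at 68.1 in fibroblasts. Apln, the ligand of Aplnr, was at 26.0 in all members, 52.8 in the core and 141 in stem or folliculostellate barcodes. Genes that respond to calcium and growth factor signals were not called, Dusp5 at 66.9 against 112 and Rcan1 at 60.8 against 51.4.

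In the angiopoietin pathway the receptors were on the endothelial side and the activating ligand was not. Of the list, 5 of 8 tested genes were called higher and 0 lower (5 higher and 2 lower in the core). Tek had 263, 257, 209 and 165 in the sets against 4.70, Tie1 183, 201, 149 and 147 against 4.02, and the receptor phosphatase Ptprb, which opposes Tek, 364, 366, 434 and 434 against 9.77. Ptpru, another receptor phosphatase, was 28.7-fold over. Angpt2, the ligand that destabilises vessels, was at 37.2 against 4.03. Angpt1, the ligand that activates Tek, was at 77.2 in all members and 100.3 in the others, and was in the core at 10.6, while fibroblasts had 166. Angptl4, a secreted inhibitor of lipoprotein lipase, had 15.9 in members, 1.86 in the core and 309 in fibroblasts.

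Of the BMP and TGF-beta list, 9 of 20 genes were called higher and 0 lower (13 and 0 in the core). Eng (endoglin), a co-receptor of BMP9, had 409.7, 466, 494 and 526 against 12.8 in the others, and Acvrl1 (ALK1), the receptor it serves, 69.9, 84.4, 73.2 and 74.7 against 4.18. Tgfbr2 was 7.29-fold over and Tgfb1 11.2-fold, with Tgfb1 at 176 in endothelial cells and 200.4 in macrophages. The signal carrier Smad1 (167 against 90.5) and the target Id2 (221 against 276) were not called. In the Notch list 6 of 14 were called higher and 3 lower. Dll4, the ligand of arterial and sprouting cells, had 60.2, 73.8, 93.3 and 78.8 against 2.60, Notch1 169, 173, 191 and 168 against 17.9, Notch4 43.4, 34.0, 31.4 and 46.0 against 5.15 and Jag2 61.4, 59.2, 59.5 and 54.2 against 10.4. The Notch target Hes1 was at 143 against 76.0 without a call. Notch2, a further receptor, was called lower (14.0 against 33.6), and so was the target Hey1, at 9.56 against 33.1, with 258 in stem or folliculostellate barcodes. Without the stem and mural limits of the rule, Notch2 and Hey1 were above the other barcodes, as were Slit2, Pdk4 and Cx3cl1.

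Wnt genes were called higher in 3 of 13 cases and lower in 0 (4 and 0 in the core), beside 6.28% and 3.29% of all tested genes. Their median ratio was 0.772, against 0.801 over all tested genes. Fzd4, a receptor for Wnt ligands and norrin, had 92.9 against 25.8, and the co-receptor Lrp5 31.6 against 4.84. Tspan12, which assists Fzd4, was at 108 against 58.6 without a call, and Lef1, a factor through which Wnt signals act, had 7 UMIs in all members. Of the genes by which axons and vessels are guided, 12 of 15 were called higher and 1 lower, with a median ratio of 5.75. Robo4, the endothelial member of the roundabout family, had 171, 178, 192 and 179 against 4.70. Plxnd1, a semaphorin receptor, had 244 against 11.6, Ephb4, the ephrin receptor of veins, 59.3 against 3.17, and Epha2 37.0 against 2.37. The called lower gene was the ligand Slit2, at 10.8 against 33.8 and 162 in stem or folliculostellate barcodes.

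**Figure D2:**
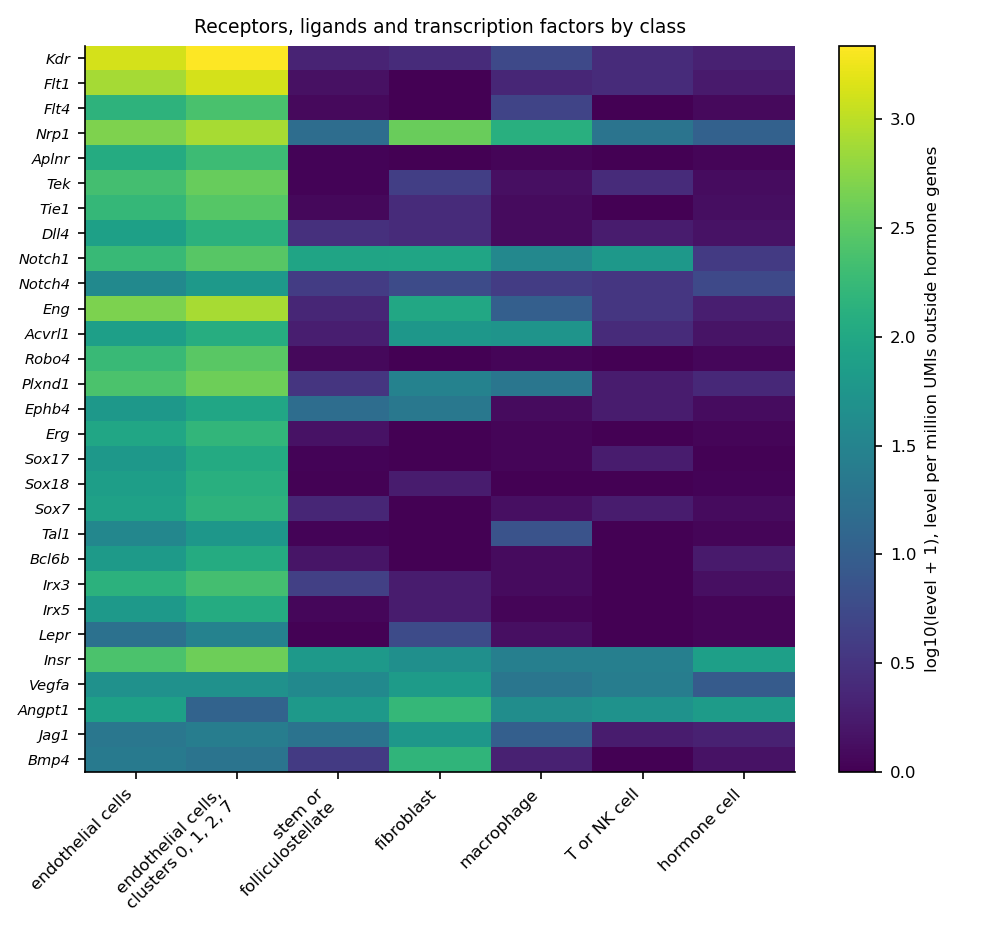
Level of 29 receptors, ligands and transcription factors (rows) as log10(level + 1), with the level in CPM, UMIs per 1000000 outside the hormone genes, in all endothelial cells, in those of clusters 0, 1, 2 and 7 and in 5 other classes (columns). Receptors and factors such as Flt1, Robo4, Erg and Sox17 were bright in the endothelial columns, whereas Angpt1, Jag1 and Bmp4 were brightest in fibroblasts.

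Transcription factors of endothelial identity were higher in 18 of 27 tested cases and lower in 0, with a median ratio of 7.93, and 10 were higher than in each of the 5 classes. Erg had 113, 74.7, 104 and 89.0 in sets 1 to 4 against 2.77 in the others, with 0.463 in the nearest class. Sox17 had 41.0, 47.6, 81.2 and 63.4 against 1.36, Sox18 100, 74.7, 75.6 and 48.1 against 2.04 and Sox7 89.2, 53.4, 105 and 72.6 against 2.64. The 3 SOXF genes differed in their order over the sets, Sox17 being highest in set 3 and Sox18 in set 1. Tal1, a factor of blood and endothelial lineages, was 31.6-fold over, and Lmo2, its partner, 14.1-fold. Klf2, induced by blood flow, was at 909 against 306, a call that its relative Klf4 did not reach (718 against 479). Tsc22d1 was at 634 against 476 without a call. Outside the list, the homeobox genes Irx3 (153, 127, 141 and 131 against 3.10) and Irx5 (73.5, 56.3, 78.0 and 46.0 against 1.42) were among the genes with the largest lowest-set ratio.

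Genes of the fenestrated and caveolar membrane were called higher for the most part, with 8 of 11 called higher and 0 lower. Cavin2, a coat protein of caveolae, had 379.5, 354, 355 and 360.2 against 10.6, and Ehd4, a membrane-shaping ATPase, 669, 728, 765 and 739.8 against 43.1. Cav1, the main protein of caveolae, was 19.7-fold over (57.8, 21.4, 41.8 and 28.6 in the sets). The general endocytic genes Dnm2 (96.5 against 45.3) and Pacsin2 (40.4 against 47.2) were not called. Of the junction list, 8 of 16 genes were called higher and 0 lower (7 higher and 1 lower in the core). Icam2 was 37.9-fold over, the gap junction gene Gja1 11.7-fold and plakoglobin (Jup) 6.14-fold, whereas Cgnl1 (144 against 91.2) and Afdn (137 against 101) were not called.

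Genes of the blood-brain barrier gave a divided picture, in which 6 of 19 were called higher and 0 lower, with a median ratio of 0.995. In the core 6 were called higher and 4 lower, with a median ratio of 0.730. Cldn5, the tight junction claudin, was called higher at 55.4, 45.6, 94.9 and 68.6 against 3.28, and Itm2a at 730.2, 699, 601 and 533 against 18.3. The efflux pumps Abcg2 (344 against 19.9) and Abcb1a (34.8 against 1.62) were called as well. Slc2a1, the glucose transporter of barrier vessels, was at 27.7 against 27.8, in the core at 15.5. Mfsd2a, a lipid transporter of the same vessels, had 3 UMIs in all 880 cells and Slco1c1, a thyroid hormone transporter, 0, which allows up to 0.735 CPM. Bsg (485 against 692) and Spock2 (88.7 against 188), both in the list, were lower in the core still, at 252 and 18.6.

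Markers of arteries and veins were called higher in part, and several defining ones were at or near 0. Of the arterial list 8 of 13 were called higher and 1 lower, led by Sox17, Dll4 and Fbln5 (109 against 5.39). Mgp (555 against 106) was at 5152 in fibroblasts and at 311 in the core. Gja5, the connexin of arteries, had 0 UMIs. Of the venous list 6 of 9 were called higher (4 higher and 0 lower in the core), with Lrg1 at 96.4, 126, 85.2 and 76.7 against 2.75 and Icam1 at 166, 248, 337 and 274 against 24.9. Ackr1, the atypical chemokine receptor of venules, had 0 UMIs, Vwf 7 and Sele 5, the last all in set 4.

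Of the lymphatic list 3 of 7 were called higher (3 higher and 2 lower in the core), and these were genes that blood vessels also use, Mmrn1 (104, 123, 100.5 and 100.3 against 2.30), Flt4 and Sema3d (46.6 against 1.504). Prox1, the factor that sets lymphatic fate, was at 60.3 against 101 and in the core at 28.6, with 120.1 in hormone cells. Pdpn had 35 UMIs and Lyve1 3. No gene of 12 tested proliferation markers was called in either direction. A call as higher needed 20 or more UMIs in endothelial cells, which most of these genes did not reach. The lack of calls as higher therefore cannot be read as a lack of difference. The median ratio of the list was 1.285 in all members and 2.32 in the core. Cenpf had 8.43, 0, 22.5 and 4.09 in sets 1 to 4 and Top2a 3.61, 1.94, 16.1 and 4.09, in each case highest in set 3, on 39 and 29 UMIs.

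**Figure D3:**
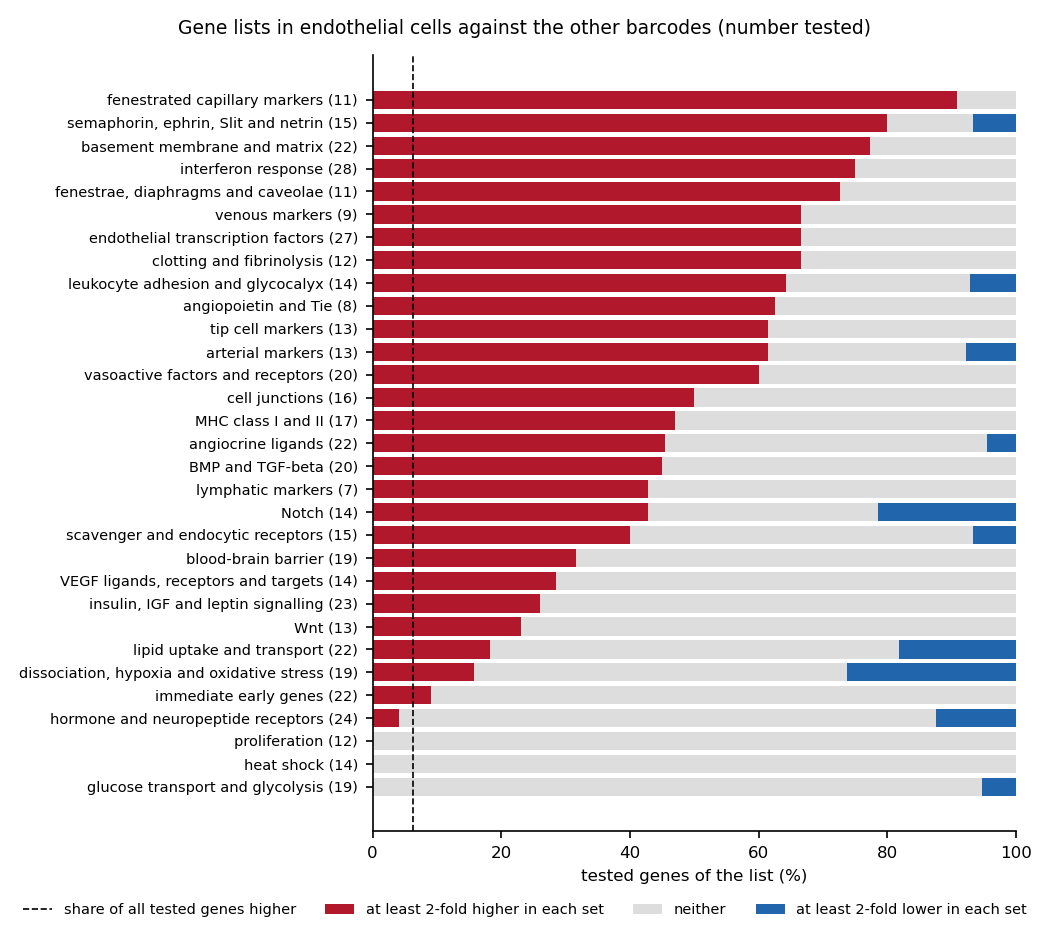
Share of the tested genes of each list (horizontal axis, percent, number tested in brackets) called at least 2-fold higher (red), lower (blue) or neither (grey) in endothelial cells in each set, rule genes left out, with the 6.28% of all tested genes called higher as a dashed line. Fenestrated capillary markers had 10 of 11 genes called higher, while the lists of heat shock and glucose use had 0. The proliferation list also had 0, but most of its genes were under the 20 UMIs in endothelial cells that a call as higher needed.

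Genes through which vessels set their tone were called higher in 12 of 20 cases and lower in 0 (11 higher and 1 lower in the core). Ramp2, the partner of the adrenomedullin receptor Calcrl, had 383, 403, 351 and 321 against 11.02, Calcrl 109 against 8.02, and Ramp3 113 against 6.04. Ramp2 was at 322 in fibroblasts and so was not over each class. Npr1, the receptor of atrial natriuretic peptide, had 57.8 against 3.05, and Ptgs1, a cyclooxygenase, 127 against 6.80. Nos3, the endothelial nitric oxide synthase, was 3.15-fold over, at 24.1, 34.0, 33.8 and 45.02. Ece1, which activates endothelins, was at 269 against 175, and the angiotensin receptor Agtr1a at 34.5 against 43.0, neither of them called, with Agtr1a at 4.35 in the core.

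Of the clotting list 8 of 12 were called higher (7 higher and 1 lower in the core). The thrombin receptor F2r had 143, 119, 157 and 126 against 7.49, thrombomodulin (Thbd) 186, 218, 189.7 and 191 against 12.9, and the ectonucleotidase Entpd1, which clears ATP and ADP, 79.4 against 7.92. Tfpi, an inhibitor of the tissue factor pathway, was at 24.5 against 3.44. S100a10 (328 against 289) and the plasminogen activator Plat (27.7 against 39.5) were not called. The glycocalyx and adhesion list had 9 of 14 called higher and 1 lower (11 higher and 1 lower in the core). Mmrn2 was 35.0-fold over and its partner Cd93 27.5-fold, with Clec14a the third of this group. Cx3cl1, a membrane-bound chemokine, was called lower (27.2 against 63.2), and Vcam1 was at 65.1, 22.3, 12.9 and 21.5 in sets 1 to 4, high in set 1, and at 4.35 in the core.

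Basement membrane genes were called higher in 17 of 22 cases and lower in 0 (18 higher and 1 lower in the core), with a median ratio of 10.2. Col4a1 had 590.4, 568, 593 and 541 against 31.4, Col4a2 336, 334, 359 and 323 against 16.5, perlecan (Hspg2) 223, 207, 224 and 176 against 9.40, Col15a1 163, 166, 148 and 129.9 against 7.48 and the collagen-binding integrin Itga1 105, 118, 145 and 162 against 7.11. Fibroblasts had 487 for Col4a1 and 208 for Col15a1, and 1 gene of the list was over each class. Itgb1 (292 against 200) and Sparcl1 (69.1 against 43.1) were not called. Of the ligands by which vessels act on their neighbours, 10 of 22 were called higher and 1 lower (9 higher and 1 lower in the core). Pdgfb, which recruits pericytes, had 169.9, 193, 182 and 175 against 12.8, Ccn2 169, 133, 216 and 168 against 7.71, and Tnfsf10 (TRAIL) 175, 205, 194 and 145 against 13.0. Ccn1 (399 against 283) was not called, and pleiotrophin (Ptn) was called lower (194 against 487, 34.8 in the core).

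The study fed mice a high-fat diet, and genes that handle lipid, insulin and leptin were looked at without regard to diet. Of the lipid list 4 of 22 were called higher and 4 lower, beside 6.28% and 3.29% of all tested genes. In the core 5 were called higher and 6 lower, beside 6.64% and 11.1%. The median ratio was 1.29 in all members and 0.537 in the core. Fabp4, a fatty acid carrier, had 460.3, 342, 283 and 262 against 9.03. Gpihbp1, which holds lipoprotein lipase on the capillary wall, had 91.6, 35.9, 42.6 and 45.02 against 1.99, with set 1 at over 2-fold the others. Scarb1, the receptor for high-density lipoprotein, had 358, 387, 356 and 309 against 23.7, and the cholesterol exporter Abca1 253, 209, 294 and 235 against 88.5. Apoe was at 6294, 4695, 2395 and 1972, against 2081 in the others and 48902 in macrophages, and Mgll at 155 against 75.8. The genes called lower included Vldlr (7.23, 10.7, 14.5 and 23.5 against 47.3), a receptor that takes up lipoproteins. The calls of Vldlr, Notch2, Slit2, Cx3cl1 and Ptn as lower did not hold with the hormone genes kept in the library size.

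Of the insulin, IGF and leptin list 6 of 23 were called higher and 0 lower, namely 4 binding proteins, Insr and Lepr, and 8 higher and 2 lower in the core. Igfbp7 had 713, 756, 732 and 753 against 41.9, Igfbp4 157 against 21.0 and Igfbp6 34.3 against 8.38. Fibroblasts had more of each, with 2005, 771 and 814. Insr, the insulin receptor, had 260.3, 242, 246 and 239 in sets 1 to 4, 246 (95% interval 231 to 262) in all, against 66.5 in the others and 75.2 in hormone cells, the class next to it. The 4 sets of Insr lay close together and the core was at 403. Lepr, the leptin receptor, had 18.1, 20.4, 16.9 and 11.3 on 68 UMIs in all, against 0.436 in the others, and the core was at 29.2. Igfbp5 (1287 against 740.3) and Socs3 (683, 676, 1193 and 1045 against 639) were not called.

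Of the receptors for pituitary and hypothalamic hormones 1 of 24, Lepr, was called higher and 3 lower, beside 6.28% and 3.29% of all tested genes. In the core 1 was called higher and 7 lower, beside 6.64% and 11.1% of all tested genes. Prlr, the prolactin receptor, had 38.6, 57.3, 44.2 and 40.9 against 155, and 8.08 in the core. Esr1, the oestrogen receptor, had 89.4 against 152 and 8.70 in the core. The glucocorticoid receptor Nr3c1 (190.4 against 208) and the growth hormone receptor Ghr (17.2 against 9.81) were not called, and Nr3c1 stayed near the others in the core (229).

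Scavenger receptors were called higher in 6 of 15 cases and lower in 1 (6 higher and 2 lower in the core). Oit3 had 53.7 against 1.60, Scarf1 49.7 against 1.67 and Stab1 112 against 11.8, with 194 for Stab1 in macrophages. Lrp10 (95.3 against 75.0) and Lrp1 (65.2 against 41.6) were not called. Of 19 genes of glucose transport and glycolysis 0 were called higher and 1 lower, beside 6.28% and 3.29% of all tested genes. In the core 1 was called higher and 3 lower, beside 6.64% and 11.1% of all tested genes. Gapdh was at 489, 464, 448 and 479.9 against 551 and Pkm at 216, 282, 228 and 295 against 351. The gene called lower in all members was Pdk4, which holds back glucose oxidation, at 8.43, 8.74, 8.04 and 8.19 against 33.8.

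Interferon response genes formed a large group, with 21 of 28 called higher and 0 lower (23 and 0 in the core) and a median ratio of 4.31. Only 2 genes of the list were 2-fold or more over each of the 5 classes, so most were not particular to endothelial cells by that measure. Iigp1, a GTPase induced by interferon gamma, had 1194, 1379, 2043 and 1639 in sets 1 to 4, 1606 (95% interval 1567 to 1645) in all, against 53.8 in the others. Every set was far above the others, and set 3 was the highest. Ifit1, induced by type I interferon, had 223, 166, 405 and 267 against 18.8, Ifi44 85.5, 91.2, 106 and 83.9 against 4.54 and Trim30a 105, 112, 137 and 124 against 7.98. Cxcl10, a chemokine of the same response, had 489, 575, 1092 and 581 against 62.1 and macrophages 843. Stat2 (75.5 against 46.1), which carries the signal of type I interferon, was not called.

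Class I genes of antigen presentation and their regulator Nlrc5 made up the calls of the MHC list, 8 of 17 higher and 0 lower (11 higher and 4 lower in the core). Against each of the 5 classes, 0 genes of the list were 2-fold or more higher. H2-D1 had 1688, 1461, 1536 and 1309 against 385, H2-Q7 298, 299.9, 331 and 281 against 32.9, B2m, the chain that all of them share, 2154, 2159, 1979 and 1763 against 601, H2-T23 126 against 28.6 and the peptide transporter Tap1 64.4 against 15.9. Class II genes were not called. Cd74, the class II chaperone, was at 858, 1108, 152 and 505 in sets 1 to 4 against 562 in the others, and H2-Aa at 395, 507, 85.2 and 175. Both were higher in sets 1 and 2 than in sets 3 and 4, and the summed macrophage markers of the members stood at 2105, 1629.8, 515 and 459 over the same sets. In the core Cd74 was at 111 and H2-Aa at 65.9, under the other barcodes.

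Of the immediate early genes 2 of 22 were called higher and 0 lower, beside 6.28% and 3.29% of all tested genes. The genes called higher were Ier3 (798, 692, 1035 and 793 against 109.6) and Ier5 (353, 274, 466 and 414 against 103). In the core 3 were called higher and 2 lower, beside 6.64% and 11.1% of all tested genes. Jun was at 6379.8, 6687, 8957 and 8631 against 5416 and Egr1 at 6019.6, 5046, 7621 and 7072 against 4345. Of 14 heat shock genes 0 were called in either direction, beside 6.28% and 3.29% of all tested genes. In the core 3 were called higher and 0 lower, beside 6.64% and 11.1%. Hspa1a was at 2892, 4547, 6249 and 4494 against 2352 and Hsp90ab1 at 3438, 3935, 3813 and 3821 against 3396. Of the list for dissociation, hypoxia and oxidative stress 3 of 19 were called higher and 5 lower, beside 6.28% and 3.29% of all tested genes. In the core 3 were called higher and 6 lower, beside 6.64% and 11.1%. Sgk1, a kinase induced by glucocorticoids, had 257 against 45.2, Cdkn1a 506 against 172, and Adm, adrenomedullin, 54.9 against 5.20. The metallothionein Mt1 was at 937 against 2220.4 and at 275 in the core, and Gadd45g at 1274 against 798.

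Markers of other cell types were summed in the members of each set, with 12 of 12 mural, 10 of 10 stem or folliculostellate, 7 of 8 fibroblast, 10 of 10 macrophage, 8 of 8 T or NK cell, 6 of 6 pituicyte and 5 of 5 red blood cell markers detected and Dpt of the fibroblast list at 0. Fibroblast markers ran from 525 to 953 CPM over the sets, against 12530.5 in fibroblast barcodes, and macrophage markers from 459 to 2105, against 21902 in macrophages. T or NK cell markers ran from 22.3 to 39.8, stem or folliculostellate markers from 92.2 to 134, pituicyte markers from 22.3 to 37.4 and mural markers from 272 to 377. Red blood cell markers were at 22.9 in set 1 and at 543, 728 and 354 in sets 2 to 4. Rgs5, a pericyte marker that the rule limits only in pairs, had a UMI in 28.9% of members, against 0.235% of T or NK cell barcodes, with a level of 230.3 in members and 394 in the core. The T or NK cell class was limited to at most 1 mural marker as well. Of the fibroblast list 5 of 7 genes were called higher in all members and 0 in the core, where Pdgfra was at 2.49 against 32.8 in all members and Lum at 9.94 against 52.7. The part of this RNA in the lists above was not tested beyond the values for the core. At the level of single genes, 8 of 10 macrophage markers were called lower in the core than in the other barcodes. The clusters with fibroblast and macrophage markers were left out of the core, and the other barcodes include macrophages. These core values therefore follow from how the core was made, and nothing is read from them.

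Among the core cells, 4 clusters differed in named genes, and since the same genes made the clusters their values are descriptions. In each, a gene was counted when it had 10 or more UMIs, was detected in 10% or more of the cells and was 2-fold or more over the other core cells, which held for 90 genes (0.463%) in cluster 0, 182 (0.936%) in cluster 1, 82 (0.422%) in cluster 2 and 102 (0.525%) in cluster 7. Counted against all other members, the share was 2.86% in cluster 3, 2.5% in cluster 4, 8% in cluster 5 and 6.26% in cluster 6. The division of the core was not stable: at a resolution of 0.3 clusters 0, 1, 2 and 7 all fell into a single cluster of 594 cells, and without doublets all 17 cells of cluster 7 fell into a cluster of 267 in which 86.1% were from cluster 2. Cluster 1 shared its best match with cluster 0 at a higher minimum of UMIs, and made up 38.5% of its best match without doublets.

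Cluster 1, 64 cells with a median of 3800 UMIs, was set apart by Apln, whose level was 250 (194 to 316) there and 33.3, 5.05 and 22.8 in clusters 0, 2 and 7. Cldn5 was at 562 (477 to 657) in cluster 1 and at 73.2, 15.2 and 45.6 in the others. For both genes the interval of cluster 1 lay above those of the others. Cav1 (196 against 31.3 in cluster 2) and Aplnr (427 against 126) were high in cluster 1 as well, and Kcnj8, Fabp5, Dapk2 and Cd34 were among the genes with the highest ratio to the other core cells. Of 13 tip cell markers, genes of the cells that lead a vascular sprout, 4 (Apln, Nid2, Mcam and Lamb1) were 2-fold or more over the other core cells in cluster 1, where the list summed to 3731 against 1887. Of 22 basement membrane genes, 7 were. The cluster held 11, 10, 25 and 18 cells of sets 1 to 4.

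Cluster 2, with 348 cells, and cluster 0, with 164, differed in genes of acute stress. Egr1 was at 10218 in cluster 2 and 2219 in cluster 0, and Hspa1a, an inducible heat shock protein, at 8973 and 1527. Over the 22 immediate early genes the summed level was 55145 in cluster 2 and 18038 in cluster 0, and over the 14 heat shock genes 35791 and 11579.7. Plvap was at 4222 and 4652. Interferon genes also differed, with Ifit1 at 578 in cluster 2 and 123 in cluster 0 and Gbp4 at 128 and 66.5. By ratio to the other core cells, cluster 0 was led by Ndufc1 and Ndufa4, subunits of the respiratory chain (Ndufa4 572 against 228 in cluster 2), and by ratio to all other members by Kctd12b, Gimap1 and Clec1a. By ratio to the other core cells, cluster 2 was led by the globins Hba-a1, Hba-a2 and Hbb-bs, with Hbb-bs at 333 against 43.5, and the part of red cell RNA was not tested. Cluster 0 had a median of 1688 UMIs against 2565 in cluster 2, and a median mitochondrial share of 2.0% against 0.932%. It held 20.1, 32.9, 12.6 and 9.05% of the members of sets 1 to 4, and cluster 2 held 36.1, 30.3, 47.8 and 41.7%. The part of depth, mitochondrial share and set in this difference was not tested.

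Cluster 7, with 17 cells, 8 of them from set 4, carried the highest levels of Flt1 and of the VEGF target Esm1. Flt1 was at 4196 (3611 to 4848) there and at 1364, 746 and 1387 in clusters 0, 1 and 2. Epas1, the hypoxia-inducible factor of endothelial cells, was at 1277 (965 to 1658) against 393, 322 and 374, and Esm1 at 912 (652 to 1242) on 40 UMIs against 73.2, 97.8 and 19.2. Plvap was at 2782 (2310.2 to 3322) in this cluster and at 3347 (3135 to 3570.4) in cluster 1, whose intervals overlap, below clusters 0 and 2. Ly6c1, Plpp3, Nrp1 and Ptprb were among its other leading genes.

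**Figure D4:**
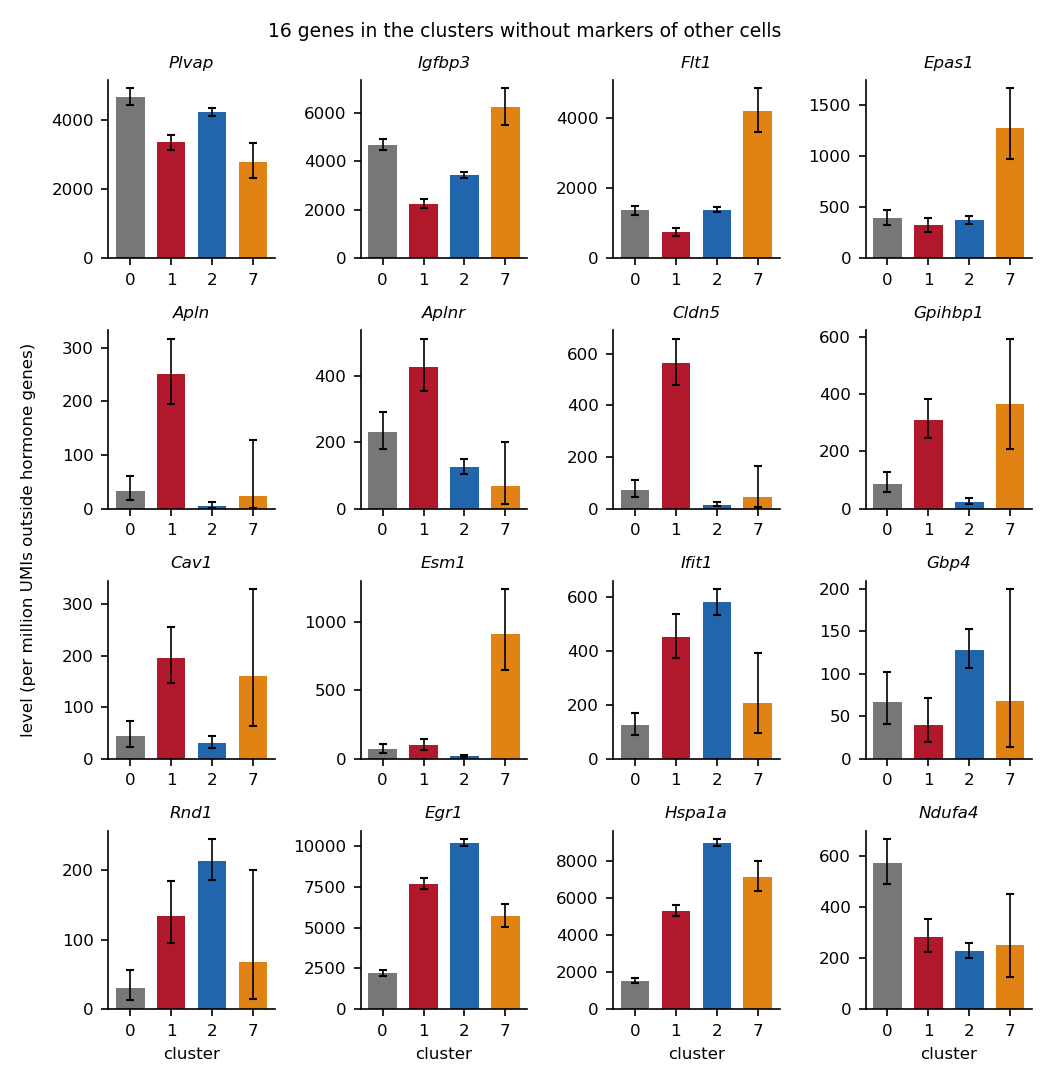
Level of 16 genes in the 4 clusters of core cells, clusters 0, 1, 2 and 7 with 164, 64, 348 and 17 cells. Bars are in CPM, UMIs per 1000000 outside the hormone genes, with exact Poisson 95% intervals that cover counting error only. Apln and Cldn5 stood out in cluster 1, Egr1 and Hspa1a were lowest in cluster 0, and Flt1, Epas1 and Esm1 were highest in cluster 7.

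Between the 4 sets most genes of the endothelial cells differed little. Of 6886 genes with 100 or more UMIs in the members, the highest set was 2-fold or more over the lowest in 385 (5.59%), and 1 set was 2-fold or more over every other in 21 (0.305%), 14 of them with set 1 on top. Several of these 21 are known from other cells. Cxcl2, a chemokine of macrophages, was at 318, 82.5, 34.6 and 32.7 in sets 1 to 4 and at 29.8 in the core, and Ccl5, Trem2, Cd14 and Il1b, genes of leukocytes, were highest in set 1 too. Grem1, a leading gene of the gonadotroph cluster 6, was highest in set 4 (19.3, 18.4, 6.43 and 59.3), which held 9 of the 22 cells of that cluster.

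In the core 244 of 3126 genes (7.81%) had the highest set 2-fold or more over the lowest, and 10 (0.32%) had 1 set 2-fold or more over every other. Set 1 stood out for Vim, the intermediate filament vimentin, at 312, 86.3, 63.3 and 99.9 in sets 1 to 4, for Gpihbp1 (188, 60.2, 68.7 and 86.0), for Fam71a (166, 28.8, 61.5 and 77.7) and for Pik3ca (131, 57.6, 63.3 and 55.5). Vim in the other barcodes ran 30.1, 28.9, 22.2 and 22.7, without such a gap. Set 2 stood out for F830016B08Rik, an interferon-inducible GTPase (41.4, 162, 43.4 and 27.7), and for Scg2 (67.0, 251, 105 and 108), a gene of hormone cells that was also highest in set 2 among the other barcodes (1337, 3093, 1650 and 2092), as were the mitochondrial genes mt-Nd3 and mt-Nd2. Set 4 stood out for Rps10 (255, 225, 237 and 591) and Rpl36al (73.3, 60.2, 66.9 and 161), and both were highest in set 4 in the other barcodes as well (329.6, 331, 327 and 765 for Rps10).

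Other genes parted the sets in pairs or by a single low set. Spry1, an inhibitor of growth factor signalling, was at 108, 157, 385 and 366 in the core of sets 1 to 4, with 57.5, 37.2, 49.4 and 38.0 in the other barcodes. The globin gene Hbb-bs was at 31.9, 44.5, 385 and 322, against 169.6, 46.6, 157 and 122 in the other barcodes, and the part of red cell RNA in it was not tested. Esm1 was at 79.7, 62.8, 21.7 and 130.4 and Iigp1 at 1986, 2349, 3376 and 3007, with set 3 the lowest for the first and the highest for the second. Plvap differed less, at 3829, 4526, 3819 and 4372, and in none of the 7 rule markers was the highest set 2-fold over the lowest. Since no set is tied to a library, none of these differences can be set against diet.

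**Figure D5:**
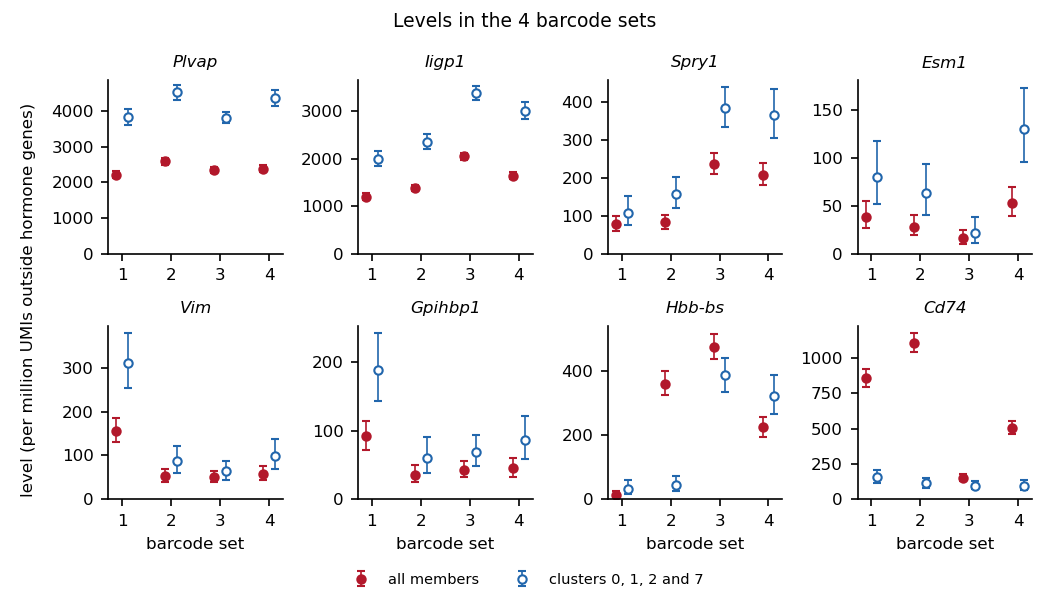
Level of 8 genes in barcode sets 1 to 4 in all 880 endothelial cells (filled) and in the 593 core cells (open). Levels are in CPM, UMIs per 1000000 outside the hormone genes, with exact Poisson 95% intervals. Plvap was similar in all sets, Vim and Gpihbp1 were highest in set 1, Spry1 was higher in sets 3 and 4, and Cd74 was lower in the core than in all members.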

How the data were processed

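The authors deposited 1 matrix of UMI counts per gene and barcode for the whole series, with its gene and barcode lists. It was written by Cell Ranger 8.0.1 per the file headers, and the submitters' processing notes name Cell Ranger and Seurat without a version or a role. The build of the genome is not given in the sources used here. Suffixes of the barcodes match no label, so the 4 sets have no diet, replicate number or test. The matrix holds 346690898 UMIs in 40406 barcodes.

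Counts were summed per set over endothelial cells and over the other kept barcodes and scaled to CPM, UMIs per 1000000 outside the 7 hormone genes. Clusters were made with scanpy 1.11.5 from 1500 variable genes without hormone and mitochondrial genes, 20 principal components, 15 neighbours and a Leiden resolution of 0.6. Clusters with 3 or more markers of another cell type at 2-fold or more over the other members were kept apart from the core. The hormone genes counted among the endocrine markers. Doublets were called by Scrublet in each set. Its automatic threshold marked 0 barcodes in 3 sets, so a score of 0.15 was used in all 4 after this had been seen, which marked 8.20% of kept barcodes. They were left out only in an alternative. Sums and intervals came from scipy 1.17.1, numpy 2.4.6 and pandas 2.3.3, and the calls were tested on simulated data. Floors are 3 UMIs and intervals cover counting error only.

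The members and the gene lists were chosen with earlier results of these data known. Named were, per list, up to 4 genes called higher by ratio and up to 2 not called with the most UMIs, and, over all genes, those with the largest lowest-set ratio, those leading over each class, each cluster and each set, and the markers. Abcg2, Ackr1, Angpt2, B2m, Bmp4, Calcrl, Cxcl10, Dpt, Fabp5, Gja5, Hba-a2, Hey1, Jag1, Klf2, Lamb1, Lef1, Lmo2, Lyve1, Mfsd2a, Ndufa4, Ndufc1, Nid2, Nlrc5, Nos3, Notch2, Pdk4, Sele, Slc2a1, Slco1c1, Slit2, Sox7, Spry1, Vegfa, Vldlr and Vwf were chosen after their values were seen. The planned comparison with mural cells was replaced, after the data were seen, by that with each of 5 classes, since 7 barcodes met the mural definition. Promoter windows come from RefSeq (GRCm38.p6), matched by symbol. Some items are not reported here.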

Additional observations from a re-analysis of the deposited data

How the results depend on the processing

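No paired analysis was possible because the barcodes carry neither a library name nor a replicate number, and the alternatives planned for the 2 diets and for mural cells were not run for the same reason and for want of mural barcodes. The endothelial share of 2.20% was 1.48% for the core alone and 3.74% with the stem and mural limits lifted, both added after seeing the data. It ran from 2.01 to 2.37% with each set left out. Of the counts of genes, 1222 higher became 629 at 4-fold and 1159 to 1236 with each set left out. The count of 641 lower genes depended most on the settings, with 1423 among cells with under 10% hormone UMIs, 1404 without doublets, 208 on the scale of all UMIs, 6136 without a minimum of UMIs, 69 at 4-fold, 2163 in the core and 677 to 822 with each set left out. The 256 genes over each class became 138 at 4-fold, 411 in the core and 257 to 278 with each set left out. The share of 5.59% that differed 2-fold between sets was 2.64 to 2.92% with each set left out, when fewer sets were compared. A resolution of 0.3 gave 5 clusters in place of 8, with the whole core in 1 of them.

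Calls of named genes as higher and as lower were followed through the same settings. Many genes named as higher were picked for a large ratio, and no naming rule picked genes for a low ratio. Both tallies hold genes of the membership rule, such as Plvap and Kdr among the higher. Among the lower are its stem exclusion genes Aldh1a2, Cyp2f2, Mia, Sox2 and Sox9. The choice of members set the direction of these genes, so nothing is read from their calls staying. The counts therefore do not compare how stable both kinds of call are. Of 163 called higher, 163 stayed so with 4 markers, fewer hormone UMIs, all UMIs in the scale or any 1 set left out, 162 with a higher minimum of UMIs (Nlrc5 was lost), without doublets (Jag1) or against barcodes with none of the rule markers (Lepr), 136 at 4-fold and 149 in the core. Of 14 called lower, 14 stayed so in the core, 13 without doublets (Notch2 was lost), 11 with fewer hormone UMIs (Hey1, Notch2 and Sox9), 8 on the scale of all UMIs (Cx3cl1, Neurod4, Notch2, Ptn, Slit2 and Vldlr), 4 at 4-fold and 3 with the stem and mural limits lifted. In the core the levels of genes known from fibroblasts and mural cells went below those of the other barcodes, with Col1a1 at 6.21, Col3a1 at 4.35, Foxd1 at 3.73, Islr at 3.11, Lamc3 at 3.11, Lum at 9.94, Ogn at 9.94, Pdgfra at 2.49 and Pdgfrb at 3.11 CPM. The cluster with fibroblast markers was left out of the core, so these levels follow from how it was made. With the stem and mural limits lifted, Aldh1a2 at 178, Cx3cl1 at 74.4, Cyp2f2 at 202, Mia at 305, Sox2 at 90.0, Sox9 at 140, Hey1 at 67.6, Notch2 at 37.7, Pdk4 at 48.6 and Slit2 at 47.3 CPM were above the other barcodes.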
